A study of Chlamydomonas reinhardtii with 12 samples.

Results

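GSA1 is the gene for glutamate-1-semialdehyde aminotransferase of the green alga Chlamydomonas reinhardtii. The array's annotation ties 4 spots to its locus, CHLRE_03g158000v5, and these 4 spots are copies of 1 printed element. The gene is 1 of 100 loci that the annotation names as the single locus of an element on the array. It was chosen by its strain ratio after 6 h of high light, which was already known to lie inside limma's threshold, so that ratio, and every difference that uses it, is given as a description, with no test.

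Chlorophyll and heme are tetrapyrroles, ring-shaped pigments and cofactors built in the chloroplast from 5-aminolevulinic acid. In plants and algae this precursor is made from glutamate: glutamate carried on its transfer RNA is reduced to glutamate-1-semialdehyde, and the aminotransferase encoded by GSA1 moves the amino group to give 5-aminolevulinic acid. Free tetrapyrroles absorb light and can pass the energy to oxygen, and cells are known to adjust the pathway to the light they receive.

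Total RNA of the double mutant npq1 lor1 and of the wild-type strain CC-125 was hybridised together on 2-colour cDNA microarrays, for cultures grown in low light and for cultures exposed to high light for 1 h or 6 h. Cells with the npq1 mutation cannot turn violaxanthin into zeaxanthin, and cells with the lor1 mutation make no lutein, so that the mutant lacks xanthophylls known to protect the photosynthetic membranes against excess light. There were 2 biological samples at each of the 3 time points, and each was hybridised to 2 slides with exchanged dyes, 12 slides in all. The sources used here give no light intensities, culture conditions or number of isolates per strain, nor is it stated that biological samples came from separate cultures, so tests measure only the spread between these samples.

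The values are log2 ratios between the strains, not levels in either strain. The likely direction is wild type over npq1 lor1: the titles put the strains in that order, and the same direction follows if channel 1 carried Cy3 throughout, but the dye of channel 1 is not stated. Under this reading a negative ratio means more GSA1 transcript in npq1 lor1, relative to all transcripts on the slide. If channel 1 carried Cy5, every direction below turns round and the sizes stay. Loci of the mutated genes were not analysed here, so the strain labels were not checked against the targeted genes. In whole cultures, fewer cells with the transcript and less transcript per cell cannot be told apart.

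A value was deposited for 45 of the 48 possible GSA1 spots. The other 3 were exactly 0 and were taken as not measured. They lay on the slide with wild type in channel 1 of sample 2 at 1 h, where 1 copy was missing, and on the slide with wild type in channel 1 of sample 2 at 6 h, where 2 were missing. These were also the slides with the most spots at 0, 43.4% and 43.2% of 11520, against 7.36% to 22.3% on the other 10. The number of slides limits the precision.

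The strain ratio of GSA1 lay farthest from equality after 6 h of high light, nearer to it in low light and closest to it after 1 h. The mean log2 ratio was -0.23 ± 0.030 in low light, -0.034 ± 0.013 after 1 h and -0.53 ± 0.18 after 6 h (SD, n = 2 biological samples each). These ratios correspond to 1.18-fold, 1.02-fold and 1.44-fold more transcript in npq1 lor1 under the likely direction, if the labels hold for every slide. The sign was negative in all 6 biological samples, although at 1 h it was not the same on every slide. With the sign of the slides with npq1 lor1 in channel 1 turned, the mean ratios were -0.059 in low light, 0.077 after 1 h and -0.16 after 6 h.

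In low light the 2 biological samples had ratios of -0.21 and -0.26. In sample 1 the slide with npq1 lor1 in channel 1 gave -0.17 and the slide with wild type there -0.26. In sample 2 the same orientations gave -0.18 and -0.33. The ratio was thus negative on all 4 slides, and all 16 spots had negative values, from -0.48 to -0.026. Of 2396 elements measured on these slides, 4.67% were also negative on all 4.

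The low light ratio did not pass limma's test, with an adjusted p of 0.337 over 2396 elements and an unadjusted 95% interval from -0.41 to -0.061. The test called 0.334% of elements at this time point. Among the elements, 133 (5.55%) lay at least as far from equality as GSA1, and among the 94 tested elements with a locus it was the 8th from the negative end. The spread in this test came from all 6 biological samples, those of 6 h included, and the call depended on how it was set. With the low light samples alone setting it, the adjusted p was 0.0382 by limma, and 114 of 2396 elements were called in place of 8. With all 4 copies required on each slide, the adjusted p was 0.0173 by limma, and 94 of 1643 elements were called. Both settings thus called more elements than the main fit. Without moderation of the spread the adjusted p of GSA1 was 0.802 by limma.

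After 1 h of high light the ratios of the biological samples were -0.043 and -0.025. The slides with npq1 lor1 in channel 1 gave -0.11 in both samples, and those with wild type there gave 0.023 in sample 1 and 0.063 in sample 2. Exchanged slides thus had opposite signs in both samples, and their mean lay close to equality. On the sample 2 slide with wild type in channel 1, the 3 measured copies were -0.44, 0.0043 and 0.62, with an SD of 0.53, where the median SD between copies was 0.271 over all elements of that slide.

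The 1 h ratio did not pass limma's test (adjusted p = 0.910, unadjusted 95% interval from -0.21 to 0.14), in a comparison where 0.704% of 2272 elements were called. GSA1 stood in the middle of the distribution at this time, with 72.9% of elements at least as far from equality. A strain difference of up to 0.21 on the log2 scale in the direction seen at the other times lies inside this interval.

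After 6 h of high light the ratios were -0.40 in biological sample 1 and -0.66 in sample 2. The slides with npq1 lor1 in channel 1 gave -0.21 in sample 1 and -0.53 in sample 2, and those with wild type there gave -0.58 and -0.79. All 14 measured spots were negative, from -0.86 to -0.17, and the ratio was negative on all 4 slides, as it was for 10% of 2139 elements. The biological samples lay 0.26 apart, against a median distance of 0.12 over the elements.

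At 6 h GSA1 was the 29th element from the negative end of 2139 and the 5th of 79 with a locus, and 33 elements (1.54%) lay at least as far from equality. With the sign of the slides with npq1 lor1 in channel 1 turned, the reading that applies if the labels do not hold for them, the 6 h ratio was -0.16, the 156th from the negative end and the 7th with a locus, and 38.7% of elements lay at least as far. This is the ratio by which the gene was chosen. The limma call at this time took in 2.01% of elements, 1.68% with negative ratios. At the edge of that call, the last element inside, element 1998, had a ratio of -0.39 and the first outside, element 2155, one of -0.82. Without the 2 slides with over 40% of spots at 0, chosen after seeing the data, 0 of 2491 elements were called.

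**Figure D1:**
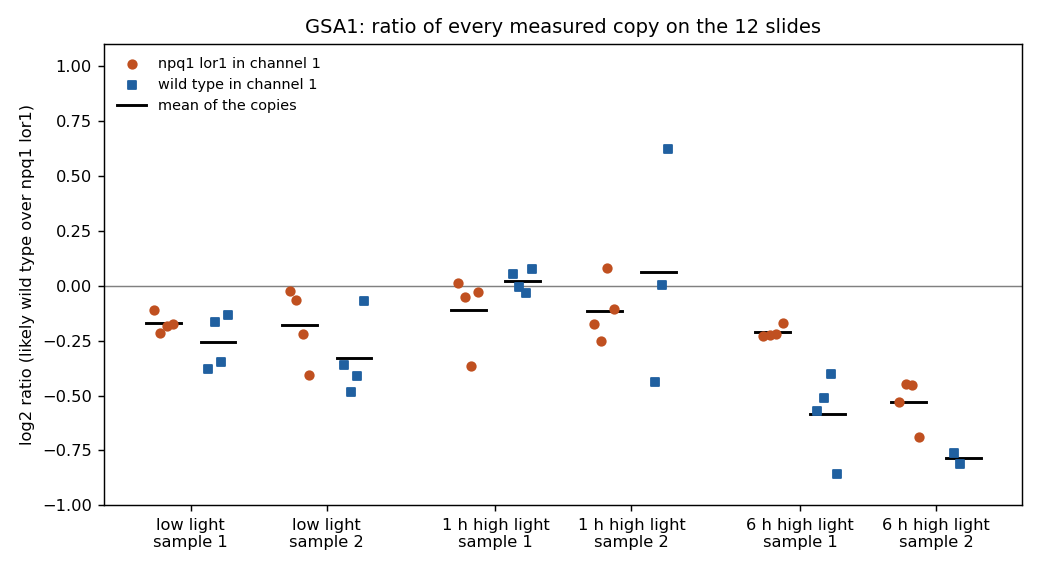
Log2 ratio (likely wild type over npq1 lor1) of each measured copy of GSA1, by time point, biological sample and slide. Orange circles are slides with npq1 lor1 in channel 1, blue squares those with wild type there, and black bars the mean of a slide's copies. All points in low light and at 6 h lie below 0, between -0.86 and -0.026, while those at 1 h lie on both sides of 0.

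Of the 2032 elements measured on all 8 slides of low light and 6 h, 33 (1.62%) were negative on each of them, GSA1 among them. The deposited sign of GSA1 at these times was the same with either strain in channel 1. This is a shared strain direction only if the deposited ratios were inverted between exchanged slides, as the labels state. The size of the ratio differed: in low light and at 6 h the slides with npq1 lor1 in channel 1 gave the ratios nearer to 0.

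The orientation of the slide moved the ratios of all elements. Over the 6 biological samples, the median difference between exchanged slides (npq1 lor1 in channel 1 minus wild type in channel 1) ran from -0.35 to -0.15. The difference for GSA1 had the opposite sign in low light, 0.085 and 0.15, and at 6 h, 0.37 and 0.26, and the same sign at 1 h, -0.13 and -0.18. GSA1 therefore stood at different places in the distributions of exchanged slides.

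In low light, 47.0% and 44.1% of elements were lower than GSA1 on the slides with npq1 lor1 in channel 1, and 4.19% and 1.79% on those with wild type there. The negative ratio on the first kind of slide was thus close to the slide's own median, at -0.17 against -0.15 in sample 1 and -0.18 against -0.10 in sample 2. At 6 h, 11.4% and 6.55% of elements were lower on the slides with npq1 lor1 in channel 1, and 2.31% and 0.772% on the others. At 1 h the percentages were 59.2% and 42.8% with npq1 lor1 in channel 1, and 23.2% and 43.4% with wild type there, so that GSA1 was near the middle on 3 of the 4 slides.

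To allow for trends across a slide, GSA1 was also set against the median of the nearest spots, within 50 spot numbers on either side of each copy. It lay below its surroundings on all 12 slides. The share of all elements for which this holds was not counted. The distance was -0.40 to -0.081 in low light, -0.24 to -0.092 at 1 h and -1.03 to -0.26 at 6 h. With this local median subtracted before averaging, the mean ratios were -0.24, -0.13 and -0.58 at the 3 time points, so the 1 h value moved away from equality by over 1.5 times, though its adjusted p was 0.671 by limma.

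**Figure D2:**
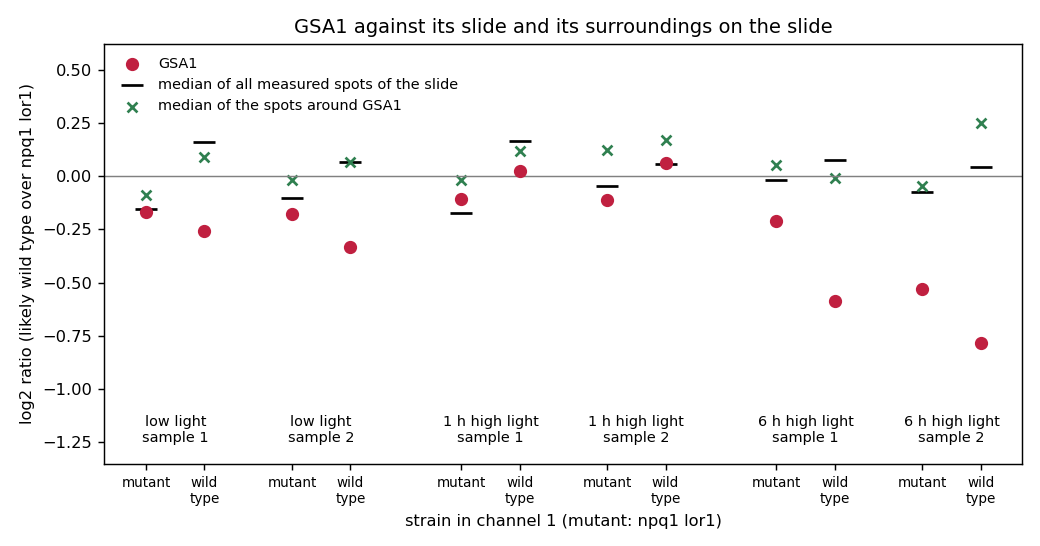
Mean log2 ratio of GSA1 (red points) on each of the 12 slides, with the median of all measured spots of the slide (black dashes) and the mean of the local medians around the measured copies (green crosses). GSA1 is nearest to its slide's median at 1 h and on the low light slides with npq1 lor1 in channel 1, and farthest below it, by 0.83, on a slide at 6 h.

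These values measure a strain difference only if, as the labels state, the slides with npq1 lor1 in channel 1 were deposited as the inverse ratio of dyes. Across elements, slides with the same strain in channel 1 correlated with r from 0.31 to 0.83 and slides with exchanged channels with r from -0.57 to 0.13. Under the labelled inversion all slides hold the same strain ratio, and strain differences alone would give positive r between exchanged slides. Why r was negative for some was not tested. Elements are not independent replicates. If the slides with npq1 lor1 in channel 1 are turned, the mean ratios of GSA1 become -0.059 in low light, 0.077 after 1 h and -0.16 after 6 h. The 1 h ratio changed sign and then lay farther from equality than that of low light. Counted from the most negative ratio, the order was still 6 h, low light and 1 h. At least as far from equality as GSA1 were then 79.7% of elements in low light and 72.1% after 1 h.

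From low light to 1 h the ratio of GSA1 moved towards equality by 0.20 on the log2 scale (SE 0.11), with both 1 h samples above both low light samples. No overlap in this direction was found for 20.8% of 2195 elements. The change did not pass limma's test (adjusted p = 0.925, unadjusted 95% interval from -0.046 to 0.45), in a comparison where 0.0456% of elements passed. It was the 7th largest positive change among 89 elements with a locus, and 281 elements (12.8%) moved at least as far. With slides turned the change was 0.14, and 16.4% moved at least as far.

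From 1 h to 6 h the ratio moved by -0.49 (6 h minus 1 h), a 1.41-fold shift of the strain ratio, and both 6 h samples lay below both 1 h samples. Non-overlap in this direction was met by 15.9% of 1925 elements. GSA1 had the 23rd most negative change of these and the 4th of 75 with a locus, and 1.97% of elements moved at least as far. With slides turned the change was -0.23, the 166th most negative and the 7th with a locus, and 9.82% moved at least as far. Limma called 0.208% of elements for this change.

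Between low light and 6 h the ratio differed by -0.29 (6 h minus low light), with no overlap between the samples, as for 19.5% of 2032 elements. The change was the 13th most negative of 78 with a locus, and 6.94% of all elements moved at least as far. With slides turned it was -0.098, the 18th with a locus, and 43.5% moved at least as far. The change rested most on sample 2 at 6 h: without it the change was -0.16, and without sample 1 at 6 h it was -0.42. Limma called 0.0492% of elements for this change.

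The order of the 3 ratios was thus 6 h, low light and 1 h, counted from the most negative. The samples of all 3 time points were separate in this order for 28 of 1895 elements (1.48%), and in any order for 11.1%. The neighbours in the order whose means do not use the 6 h values, low light and 1 h, did not differ beyond limma's threshold. The spread in that test was set by all 3 time points, 6 h included, so the test was not wholly apart from the choice of the gene. With the low light and 1 h samples alone setting the spread, the adjusted p was 0.713 by limma.

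**Figure D3:**
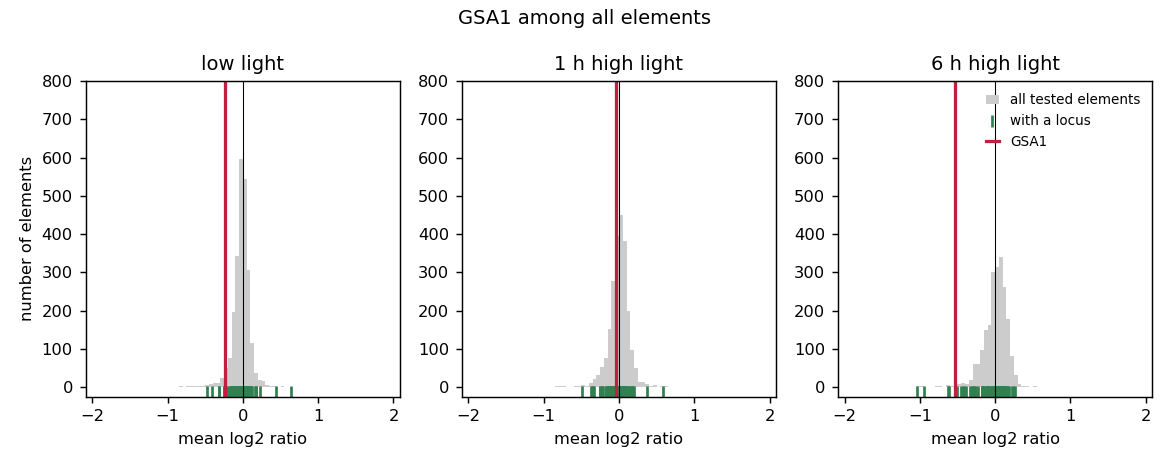
Histograms of the mean log2 ratio over all tested elements (2396 in low light, 2272 after 1 h and 2139 after 6 h), with green ticks for the elements that have a locus and a red line for GSA1. The red line lies near the edge of the distribution in low light, inside it at 1 h and in its negative tail at 6 h.

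Other genes of tetrapyrrole synthesis were looked up from a list of 19 loci drawn up from general knowledge of the pathway. The annotation tied an element to a single locus for 2 of them, and the others may be on the array without such an annotation. The annotation used here gives locus tags without gene names or functions, so both are given by their tags. Neither passed limma's test at any time point, where the calls took in 0.334%, 0.704% and 2.01% of elements.

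CHLRE_02g085450v5 had ratios of -0.13 and -0.13 in low light, 0.069 and 0.042 at 1 h, and 0.015 and -0.042 at 6 h. It was negative on all 4 slides in low light, as GSA1 was, and on 2 of 4 at 6 h. Its mean ratios were -0.13, 0.055 and -0.013, with adjusted p from 0.702 to 0.932.

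CHLRE_07g346050v5 had ratios of -0.090 and -0.15 in low light, -0.13 and -0.037 at 1 h, and 0.046 and -0.11 at 6 h. Its mean ratios were -0.12, -0.083 and -0.030, with adjusted p from 0.706 to 0.847. All 3 loci, GSA1 included, had negative means in low light, as did 55 of the 94 tested elements with a locus. At 6 h GSA1 had -0.53, and the other loci had -0.013 and -0.030, beside a median of 0.026 over all elements. The difference between GSA1 and these loci was not tested.

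A second list held 9 loci of light harvesting, photosynthetic electron transport, ATP synthesis in the chloroplast and carotenoid synthesis, represented by 11 elements. It was drawn up with earlier results of these data in view, so its counts are no independent evidence. At 6 h all 11 elements had negative mean ratios and 7 of them passed limma's test, against 1.68% of all elements called with negative ratios. Of the 79 tested elements with a locus, 43 had negative means and 8 were called, all with negative ratios. Those 8 were GSA1 and the 7 of the list, so the list took in every other called locus. GSA1 had -0.53, against a median of -0.46 over the list and 0.026 over all elements. In low light 1 of the 11 passed, the only called element of the 94 tested with a locus. There GSA1 had -0.23, against a median of -0.24 over the list and -0.011 over all elements. At 1 h none of the 11 passed, with adjusted p from 0.0683 up, and GSA1 had -0.034, against a list median of -0.18.

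The elements whose ratio followed GSA1 most closely were ranked by Pearson's r over the 6 biological samples. Compared were 2358 elements with values in at least 5 of these samples, 91 of them with a locus. For elements with 5 values, r was taken over those 5. The loci and the element named below had all 6. These correlations are descriptions over 5 or 6 samples in 3 time points that share slides with GSA1. The median r was -0.038 over all elements, and r ran from -0.99 to 0.99, so high values are common at this number of samples: 3.48% of elements had an r at least that of the 5th locus named here.

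CHLRE_12g509650v5 had the highest r among the loci, 0.95, and the same order of the 6 samples as GSA1. Its ratios were 0.11 and 0.011 in low light, 0.13 and 0.23 at 1 h and 0.011 and -0.14 at 6 h, so it followed GSA1 in pattern at ratios nearer to or above 0. Its root mean square difference from GSA1 was 0.34 on the log2 scale. None of its mean ratios passed limma's test (adjusted p from 0.372 to 0.974).

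CHLRE_16g673650v5 followed with r = 0.90 and more negative ratios than GSA1 in every sample. It had -0.32 and -0.50 in low light, -0.20 and -0.30 at 1 h and -0.95 and -0.93 at 6 h. CHLRE_08g365900v5 had r = 0.81, with -0.16 and -0.34 in low light, -0.10 and -0.56 at 1 h and -0.91 and -1.16 at 6 h. Both had their most negative ratios at 6 h, as GSA1 did. There both passed limma's test (adjusted p = 0.00101 and 0.00358), where 2.01% of elements were called, but not in low light or at 1 h. Both loci, and CHLRE_12g509650v5, were members of the second list above, so they are not separate from it.

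CHLRE_03g204650v5, with r = 0.80, had 0.011 and -0.19 in low light, -0.0017 and -0.15 at 1 h and -0.26 and -0.37 at 6 h. CHLRE_03g144807v5, also with r = 0.80, had positive ratios of 0.60 and 0.57 at 1 h, and 0.22 and -0.54 in the samples of 6 h. Without the 2 samples whose GSA1 ratio lay farthest from its median, r over the other 4 was 0.85, 0.93, 0.89, 0.83 and 0.44 for the 5 loci in this order, so the likeness of the fifth rested on those samples. Among elements with no locus, element 858 had the highest r, 0.99, with ratios from -0.41 to 0.17. Over the 12 single slides r was lower for all of them: 0.62, 0.78, 0.51, 0.38 and 0.71 for the 5 loci in the same order, and 0.31 for element 858.

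**Figure D4:**
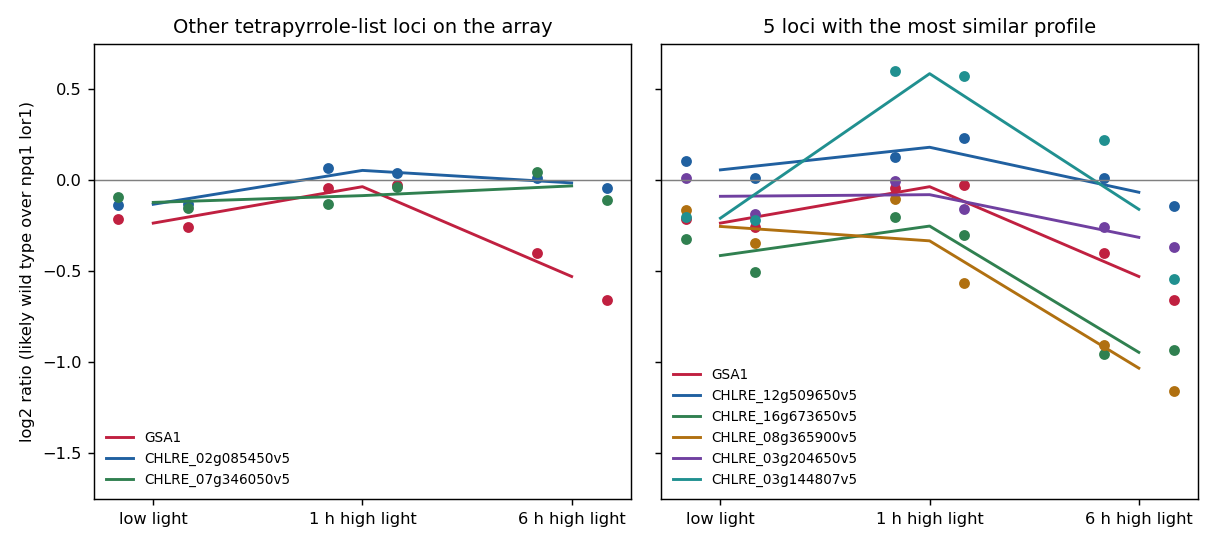
Log2 ratios of the 6 biological samples (points) and their time-point means (lines) for GSA1 (red) with the 2 other tetrapyrrole-list loci annotated to an element (left) and with the 5 loci of highest r (right). The tetrapyrrole-list loci stay between -0.15 and 0.069 while GSA1 reaches -0.66, and the loci of the right panel lie at different distances from 0. CHLRE_08g365900v5 has its highest mean in low light, and CHLRE_03g144807v5 its lowest there, unlike GSA1.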

How the data were processed

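The deposited values are log2 ratios of 2 channels per spot, normalized in SNOMAD by the authors, per the labels. The ratio is Cy5 over Cy3 on the slides with npq1 lor1 in channel 1 and Cy3 over Cy5 on those with wild type there, per the labels. The settings of that normalization, any background correction or centring, and the handling of weak spots were not given in the sources used here. Slide medians without zeros ran from -0.17 to 0.17.

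Exact zeros were treated as missing. Spots whose numbers differ by 2880 were taken as the 4 copies of an element, which gives 2880 elements from 11520 spots. At least 2 copies were averaged per slide, then the exchanged slides of a biological sample, which count as 1 replicate. No 2 slides held identical values. Means of the 3 time points were fitted with limma 3.58.1 in R 4.3.3, with 1 moderated spread per element, and tested two-sided with Benjamini-Hochberg adjustment over all elements and a threshold of 0.05. The fit was tested on simulated data. Genes came from the platform's annotation, and all 100 loci were found in the RefSeq gene table of Chlamydomonas_reinhardtii_v5.5. The array's build is not stated, so no coordinates are given. The gene, the lists and the rule for naming were chosen with earlier results of these data known. The rule named GSA1, the list loci, and the 5 loci and 1 element without a locus with the highest Pearson's r.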

Additional observations from a re-analysis of the deposited data

How the results depend on the processing

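GSA1 ratios in low light and at 6 h were negative under all 25 and 23 alternatives. Most could not move them, as GSA1's values were kept. The low light ratio passed limma's threshold with its own samples alone setting the spread (-0.23, adjusted p = 0.0382) and with all 4 copies required (-0.23, adjusted p = 0.0173). The other 23 did not pass. The passing settings called 114 of 2396 and 94 of 1643 elements, against 8 of 2396 in the main fit. The 1 h ratio changed sign to 0.043 on slides with wild type in channel 1 alone and to 0.077 with the slides of npq1 lor1 in channel 1 turned. That turn also moved the 6 h ratio to -0.16, the change from 1 h to 6 h to -0.23 and that from low light to 6 h to -0.098. The change from 1 h to 6 h was -0.26 on slides with npq1 lor1 in channel 1 alone and -0.73 on those with wild type there. The change from low light to 1 h stayed between 0.064 and 0.34 and did not pass in any of 24 alternatives. Causes were not tested. Requiring 3 or 4 copies left GSA1 without a 6 h value, and 4 copies also without one at 1 h.

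Leaving out each biological sample in turn gave ratios of -0.26 to -0.21 in low light, -0.043 to -0.025 at 1 h and -0.66 to -0.40 at 6 h, a lone sample being assumed to vary like the others. Without the 2 slides with over 40% of spots at 0, chosen after seeing the data, the 6 h ratio was -0.46 and the 1 h ratio -0.078. Called elements then numbered 0, 1 and 0, against 8, 16 and 43 in the main fit. Biological samples share only a number across time points: deviations of same-numbered samples correlated with 0.23, -0.019 and -0.15 between 1 h and low light, 6 h and low light, and 6 h and 1 h. A replicate block by that number holds a sample of each time point. It thus could not move GSA1's ratios, -0.23, -0.034 and -0.53, or changes, 0.20, -0.49 and -0.29. With the block the adjusted p in low light was 0.284 by limma, and the elements called numbered 27, 24 and 58. With the 6 h numbers crossed, also chosen after seeing the data, they numbered 73, 94 and 155.

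Counts of called elements moved by over 1.5 times in 20 of 26 alternatives in low light, 17 of 25 at 1 h and 10 of 26 at 6 h. They reached 842, 796 and 479 with slides turned. They were 0 at all 3 time points without moderation by limma, where 152, 176 and 347 elements had an unadjusted p under 0.05, and with zeros kept as ratios, where 263, 365 and 542 had. By r over the 12 slides, CHLRE_16g673650v5 was the locus most like GSA1, CHLRE_03g144807v5 the 2nd, CHLRE_12g509650v5 the 4th, CHLRE_08g365900v5 the 8th and CHLRE_03g204650v5 the 16th, and by root mean square difference CHLRE_03g204650v5 was the 2nd and CHLRE_12g509650v5 the 41st.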
